A study of Mus musculus with 4 samples.

Results

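Transcripts of the mitochondrial respiratory chain and the ATP synthase were followed in YAMC cells, a conditionally immortalised colon epithelial line from young adult mice, either left without treatment or kept for 16 h in medium conditioned by the probiotic bacterium Lactobacillus GG (LGG). Members were all probe sets of the mouse 430A array whose only gene symbol began with Nduf, Sdh followed by a to d, Uqcr, Cox followed by 4 to 8, or Atp5, which gave 160 of 22690 probe sets and 87 genes. Each group had 2 arrays. By their titles, an untreated and a treated array share a date, and the 2 dates are written as date 1 and date 2. The labels do not say whether separate cultures were used, so the p-values measure a spread that may be technical. Cells given medium without bacteria were not analysed here, so products of LGG cannot be told apart from acid, lactate or the medium itself.

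The respiratory chain passes electrons along protein complexes of the inner mitochondrial membrane. Complex I takes them from NADH and complex II from succinate, both hand them to ubiquinone, complex III moves them on to cytochrome c, and complex IV gives them to oxygen. The proton gradient built on the way drives complex V, the ATP synthase. Colon epithelium depends on this chain because it oxidises butyrate made by gut bacteria. All members here are nuclear genes; the subunits encoded by mitochondrial DNA are outside the selection.

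On date 1 the same 6307 probe sets are empty on both arrays, so the members fell into 3 classes. A total of 91 probe sets for 69 genes had values on all 4 arrays and a mean intensity of at least 101, and these were tested. Another 4 probe sets were measured on all arrays below that mean, and for Cox7a1 and Cox8b no other was measured on all 4. The remaining 65 probe sets had values at date 2 alone, and 16 genes had no others. The 69 genes tested comprised 32 of complex I, 4 of complex II, 7 of complex III, 11 of complex IV and 15 of complex V. By symbol prefix, the assembly factors Ndufaf1, Ndufaf3, Ndufaf5 and Sdhaf4 stand among them, and Ndufa4, since recognised as a subunit of complex IV, is counted in complex I.

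Trimmed of 2% at either end, the mean intensities of the 4 arrays ran from 500.1 to 513.5. Of 12 epithelial markers, 3 (Krt8, Krt18 and Krt19) had a mean of at least 101, while Epcam lay between 6 and 9 and Cdh1 between 8.7 and 41.8 on the 4 arrays. Of 8 fibroblast markers measured, 5 reached it, and Col1a1 lay between 6568.6 and 10156.3, while Pdgfrb, Lum and Thy1 did not reach it. The defining epithelial transcripts Epcam and Cdh1 were thus dim in cells labelled as epithelium, while Col1a1, Dcn and Vim were bright. Krt18 had a mean of 1388, above the 780 of the fibroblast marker Pdgfra. The summed fibroblast markers were 32692.6 and 27851.7 on the untreated and 24439.6 and 22847.9 on the treated arrays, and 1 of the markers, Dcn, fell. The epithelial markers summed to 2481.1 and 3364.7 untreated and 3465.6 and 2971.3 treated. White blood cell markers summed to 754.6 and 566.9 untreated and 836.9 and 838.8 treated, with Ptprc between 15.4 and 37.2, and 1 of 6, Cd68, rose. Endothelial markers summed to 398.3 and 309 untreated and 487 and 452.2 treated, and 1 of 4, Kdr, rose. The others had means under 101 and were not tested. Tek measured 149.4 and 96.1 untreated and 36.8 and 51.4 treated, and Pecam1 48 and 34.1 untreated and 12.1 and 21.3 treated. Cdh5 lay between 41.6 and 64.7. For RNA quality, the Gapdh control gave 3' to 5' ratios of 0.805 and 0.784 on the untreated and 0.931 and 0.768 on the treated arrays. The part of these cell markers and ratios in the results was not tested.

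Some promoters of these genes share letters that the selection did not use. NRF1, the ETS factor GABPA and YY1 are known regulators of nuclear genes for mitochondrial proteins. The RefSeq promoter table of assembly GRCm38.p6 held windows from 250 bases before to 50 after a start for 73 of the 87 genes. The NRF1 letters, GCGCA and GCGC parted by any 1 base, stood on either strand in 23.1% of the 78 member windows and in 4.60% of all 32851 windows. The ETS letters CCGGAAG stood in 25.6% against 8.86%, and the YY1 letters AAGATGGCG in 7.69% against 1.40%, while the CCAAT box stood in 38.5% against 37.4%. The member windows were also richer in G and C, with a median of 58.8% against 52.7%, and the part of base composition in these shares was not tested. The ETS and YY1 letters can share the bases AAG. The stretches before the start of 4 members are shown because genes with the same letters lay on opposite sides of 0: Ndufaf1 and Uqcr11 hold ETS letters (log2 changes of 0.60 and -0.42), and Atp5h and Cox6a1 hold both NRF1 and ETS letters (-0.19 and 0.15). Capitals mark NRF1 and ETS letters, on either strand, and each stretch is written in the direction of transcription.
Ndufaf1, chr2:119662835-119663084, minus strand: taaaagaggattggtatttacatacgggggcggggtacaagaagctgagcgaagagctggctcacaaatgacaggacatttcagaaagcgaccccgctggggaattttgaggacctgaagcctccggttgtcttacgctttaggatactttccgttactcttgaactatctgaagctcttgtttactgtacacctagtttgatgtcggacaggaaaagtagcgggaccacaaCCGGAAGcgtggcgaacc
Uqcr11, chr10:80406822-80407071, minus strand: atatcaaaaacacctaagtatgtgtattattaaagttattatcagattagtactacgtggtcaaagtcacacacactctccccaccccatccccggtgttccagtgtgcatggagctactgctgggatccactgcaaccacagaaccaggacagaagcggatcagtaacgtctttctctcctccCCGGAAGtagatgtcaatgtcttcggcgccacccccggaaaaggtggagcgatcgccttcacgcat
Atp5h, chr11:115419920-115420169, minus strand: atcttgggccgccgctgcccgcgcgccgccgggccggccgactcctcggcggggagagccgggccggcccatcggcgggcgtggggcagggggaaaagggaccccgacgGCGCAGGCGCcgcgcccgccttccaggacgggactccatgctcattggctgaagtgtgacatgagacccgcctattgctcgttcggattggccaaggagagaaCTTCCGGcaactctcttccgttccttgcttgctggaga
Cox6a1, chr5:115348959-115349208, minus strand: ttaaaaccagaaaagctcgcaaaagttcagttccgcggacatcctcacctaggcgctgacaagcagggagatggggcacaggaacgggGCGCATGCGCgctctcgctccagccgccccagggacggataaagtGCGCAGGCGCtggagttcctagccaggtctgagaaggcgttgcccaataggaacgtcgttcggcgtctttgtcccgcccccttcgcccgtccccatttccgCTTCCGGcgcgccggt
The ETS letters begin 18 bases before the start in Ndufaf1 and 66 bases before it in Uqcr11. The 14 tested genes with NRF1 letters had a median log2 change of -0.01, from -0.30 to 0.54, and the 44 without them 0.02, from -0.48 to 0.60. The 16 with ETS letters had a median of -0.05, from -0.42 to 0.60, and the 42 without them 0.03. The 6 with YY1 letters had a median of -0.12, from -0.48 to 0.29, and the 52 without them 0.02. A match is a run of letters and not a shown binding site.

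The comparison of LGG medium with no treatment asked which transcripts of the chain differ after 16 h. No member passed: of the 69 genes, 0 rose and 0 fell (limma, date as the block, Benjamini-Hochberg adjustment across every tested probe set, p under 0.05), while 6.5% of the 6952 genes tested passed, 3.01% higher and 3.5% lower. The lowest adjusted p among the members was 0.149, for Ndufaf1. At an unadjusted p under 0.05 stood 4 of the 69 members (Ndufaf1, Cox7a2l, Ndufa9 and Uqcr11), or 5.80%, against 20.3% of all genes tested. At the level of probe sets the counts were 0 of 91 and 6.55% of 10333. A gene is represented by the brightest of its tested probe sets, and log2 values are of intensity plus 25.2, which understates the fold of dim genes. With 2 arrays in each group, an exact permutation test that ignores the dates has a smallest two-sided p of 0.333. The calls therefore rest on variance shared across genes by limma.

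The changes were also small. The median log2 change of the members was 0.02 (0.00 at date 1 and 0.02 at date 2), beside 0.03 over all genes, and the median absolute change was 0.11 beside 0.24. The fitted change was under 1.5-fold for 68 of 69 members, or 98.6%, and for 85.8% of all genes, with Ndufaf1 the exception. The 95% interval of the change lay within 2-fold in either direction for 66 of 69 members, or 95.7%, and for 79.0% of all genes. The 3 members whose interval passed 2-fold, in each case at its upper end, were Ndufaf1, Ndufaf5 and Cox6a2. Members were brighter than most genes, with a median mean intensity of 2202 against 549.7, and bright genes had smaller errors. Among the 2054 genes with a mean of at least 1000, the median absolute change was 0.21, 8.81% passed and 87.3% had an interval within 2-fold; among the 62 members as bright, these were 0.11, 0 genes and all 62. These intervals use the shared variance and can understate how far the dates differed for a gene.

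**Figure D1:**
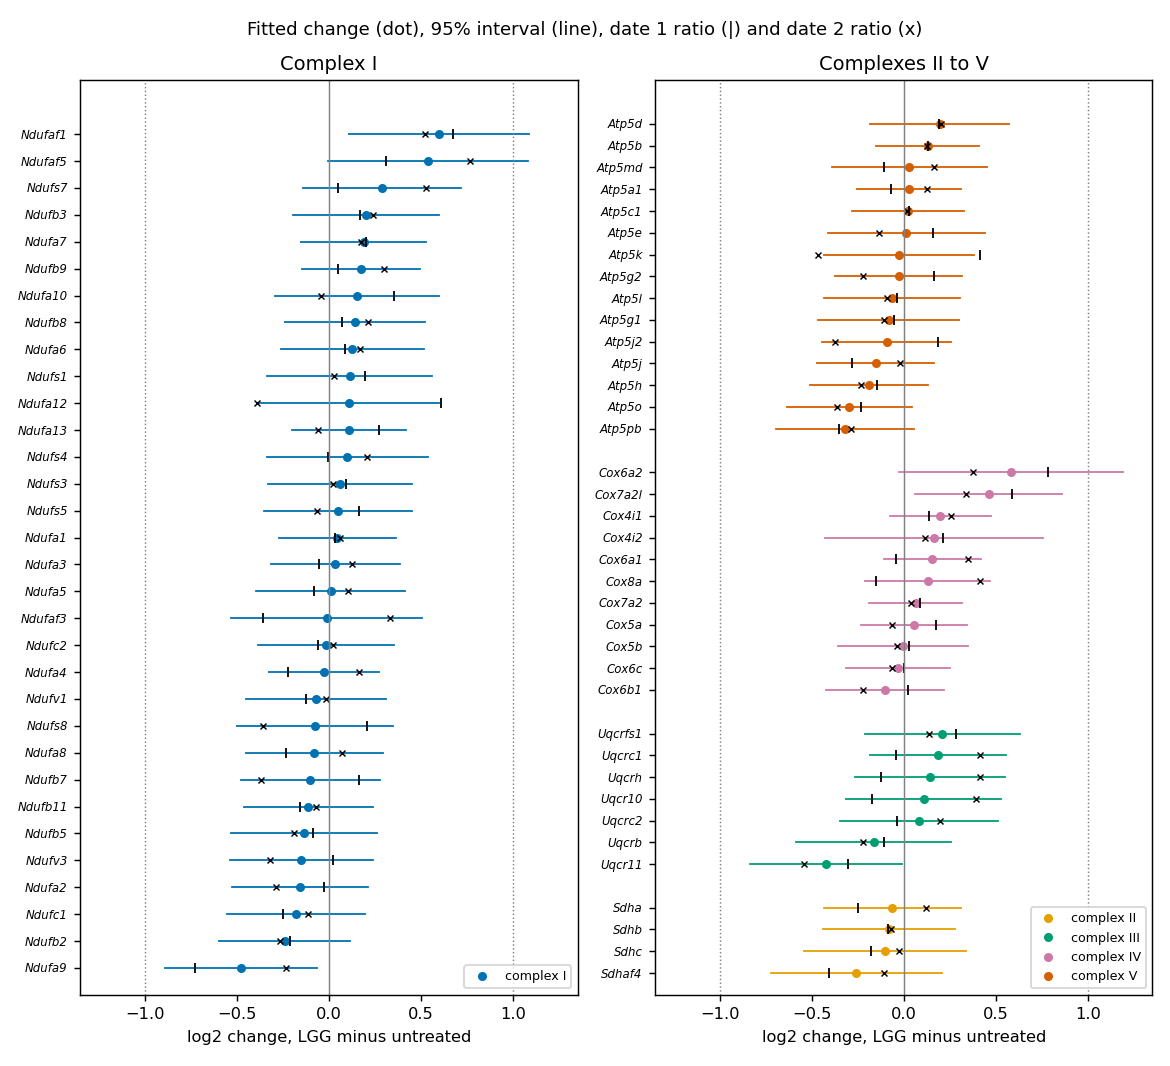
Log2 change after LGG medium of the 69 genes tested, by complex; dots are fitted changes, lines their 95% intervals (limma, 2 arrays per group), bars the ratio at date 1 and crosses the ratio at date 2, and dotted lines mark a 2-fold change. The dots lie between -0.48 for Ndufa9 and 0.60 for Ndufaf1, and the intervals of Ndufaf1, Ndufaf5 and Cox6a2 pass the upper dotted line.

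**Figure D2:**
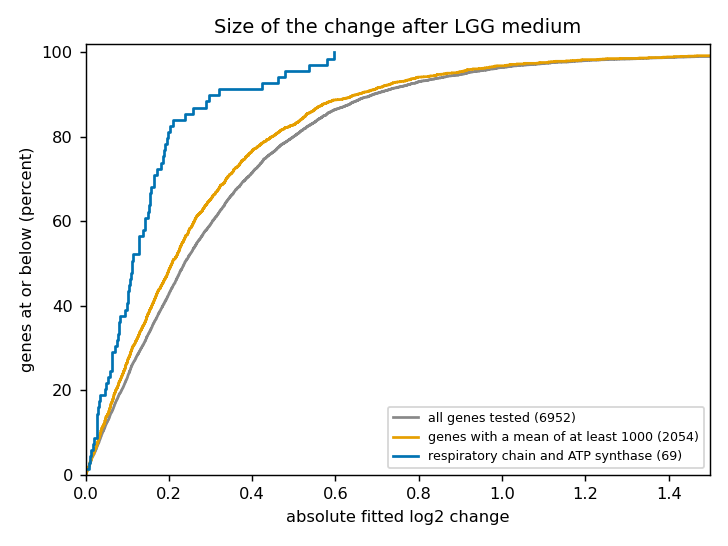
Share of genes (percent) whose absolute fitted log2 change is at or below the value on the horizontal axis, for all 6952 genes tested, the 2054 with a mean of at least 1000 and the 69 members. The curve of the members runs above both others over most of its range, with medians of 0.11, 0.24 for all genes and 0.21 for the bright ones.

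The dates gave different patterns among the members. Of 69, 20 were higher at both dates, 18 were lower at both, 15 were higher at date 1 and lower at date 2, and 16 the reverse, so 55.1% kept their sign against 65.2% of all genes. Across the 69 genes the log2 ratios of the dates correlated at 0.19 (Pearson) and 0.15 (Spearman), against 0.55 and 0.48 across all genes tested. Genes are not independent replicates, and the points share 4 arrays. The treated and untreated intensities did not overlap for 26 of the 69 members (37.7%), 15 higher and 11 lower, against 48.5% of all genes, 26.2% higher and 22.3% lower.

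**Figure D3:**
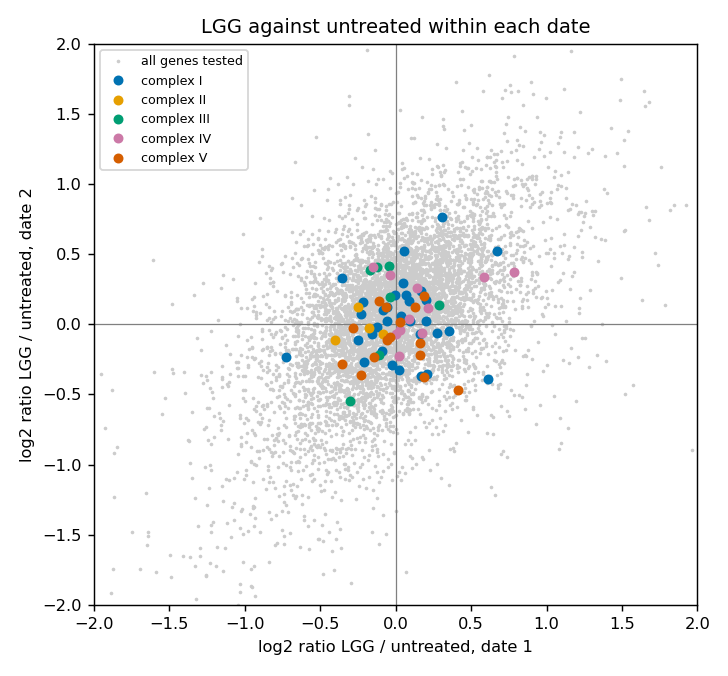
Log2 ratio of LGG to untreated at date 1 (horizontal) and date 2 (vertical), 1 array per group at each date; grey points are all genes tested and coloured points the members by complex. Members lie near the origin, and 31 of them stand in the quadrants of opposite sign.

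Complex I had the widest range, from -0.48 to 0.60, around a median of 0.04 (0.04 at date 1 and 0.02 at date 2), and 0 of 32 genes passed. Its highest values were those of assembly factors, proteins that help build the complex and do not stay in it. Ndufaf1, which acts early in the assembly of the membrane arm, measured 379 and 470.4 on the untreated arrays of dates 1 and 2 and 619.3 and 686.5 on the treated ones. Both treated arrays lay above both untreated arrays, a log2 change of 0.60 ± 0.23 (SE, n = 2 arrays per group; limma, adjusted p = 0.149). Ndufaf5, which modifies the core subunit encoded by Ndufs7, measured 224.3 and 243.5 untreated and 283.5 and 431.7 treated. Again the groups did not overlap, but most of the difference came from date 2 (log2 ratios of 0.31 and 0.77; change 0.54 ± 0.25, adjusted p = 0.248). Ndufaf3 went in opposite directions at the dates, from 556.1 to 429 at date 1 and from 684.1 to 867.9 at date 2. Ndufaf7, measured at date 2 alone, went from 319.4 to 656.3, while the brighter probe set of Ndufaf4 went from 288.2 to 235.9. The assembly factors of complex I therefore differed among themselves, and none passed.

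The catalytic subunits stayed closer to no change. Of the nuclear core subunits, which include the carriers of the flavin and iron-sulfur centres, 5 were tested: Ndufs1, Ndufs3, Ndufs7, Ndufs8 and Ndufv1, with a median of 0.06 and a range from -0.08 to 0.29. Ndufs7, which holds the last iron-sulfur cluster before ubiquinone, was the highest of them, with 1462.2 and 1380 untreated and 1516.5 and 1999.2 treated (0.29 ± 0.20). In this probe set nearly all of the difference arose at date 2 (log2 ratios of 0.05 and 0.53), but in the dimmer one it was larger at date 1 (0.53 and 0.26; change 0.39). Ndufv2, known from date 2 alone, measured 2667.6 and 2741. The 24 accessory subunits, which surround the core, had a median of 0.02 and ranged from -0.48 to 0.20.

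Ndufa9, an accessory subunit at the ubiquinone end of the complex, was the lowest member. It measured 2412 and 2215.9 untreated and 1448.2 and 1884.7 treated, so the groups did not overlap and the treated array of date 1 was the lowest. Its log2 change was -0.48 ± 0.19 (limma, adjusted p = 0.171), with ratios of -0.73 and -0.23 at the dates. Ndufb2 and Ndufc1, small subunits of the membrane arm, had changes of -0.24 and -0.18 and did not overlap either. The dimmer probe set of Ndufb2 had a change of -0.43, with an unadjusted p of 0.0485. For Ndufa7 the dimmer probe set gave 0.50 and the brighter 0.19, with unadjusted p-values of 0.0231 and 0.252. Ndufa12, which sits on the peripheral arm, had the largest gap between the dates in complex I. The probe set that represents it went from 1617.2 to 2482.4 at date 1 and from 2006 to 1526.3 at date 2. Its treated arrays thus stood above and below both untreated ones. Other probe sets of Ndufa12 did not show this. A dimmer tested one was higher at both dates (log2 ratios of 0.38 and 0.43). Brighter ones, measured at date 2 alone, went from 3427.3 to 3643.1 and from 3808.8 to 4000.8.

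Complex II, or succinate dehydrogenase, also belongs to the TCA cycle, and all 4 of its tested genes had a fitted change below 0 without passing (median -0.09, -0.21 at date 1 and -0.05 at date 2). Sdhb, the iron-sulfur subunit, was the most even, with 2690.5 and 2633.5 untreated and 2532.4 and 2504.5 treated (-0.08 ± 0.17, with a 95% interval from -0.44 to 0.28). The membrane anchor Sdhc measured 996.7 and 1244.1 untreated and 877.2 and 1219 treated, a pattern in which the dates lay farther apart than the groups. Sdha, the flavoprotein, went from 2745.8 to 2304.7 at date 1 and from 2694.8 to 2935.7 at date 2, and its dimmer probe set was higher at both dates (0.06 and 0.32). The assembly factor Sdhaf4, which binds free Sdha, measured 955.1 and 898.3 untreated and 715.4 and 830.1 treated (-0.26 ± 0.22, adjusted p = 0.554). The other anchor, Sdhd, had values at date 2 alone and went from 1799.1 to 3044.8, a log2 ratio of 0.75, while its dimmer probe set went from 202.9 to 247.6. At the same date the assembly factor Sdhaf1 went from 503.7 to 284.6 and Sdhaf2 from 842.4 to 979.8. No test can be had on 1 array per group.

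In complex III a difference between the untreated arrays ran alongside the result. Uqcrc1 and Uqcrc2, the core proteins, and the small subunits Uqcrh and Uqcr10 were lower on the untreated array of date 2 than on that of date 1 (log2 ratios of -0.37, -0.55, -0.39 and -0.52, against a median of -0.03 over all genes). Uqcr10 measured 2198 and 1526.2 untreated and 1946.7 and 2007.8 treated. Uqcrc1 measured 3234.4 and 2498.1 untreated and 3138.2 and 3340.9 treated. In each of these 4 genes treatment went with a lower value at date 1 and a higher one at date 2, and the median of the complex was -0.11 at date 1 and 0.19 at date 2 (0.11 fitted). Without untreated replicate 1 the median of the complex was 0.34, and without untreated replicate 2 it was -0.15.

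Uqcr11, the smallest subunit, stood apart from these. It measured 1866.2 and 1699.7 untreated and 1508.5 and 1157 treated, with no overlap, a log2 change of -0.42 ± 0.19 (limma, adjusted p = 0.231). Uqcrb, which contributes to the ubiquinone site, measured 1401.9 and 1408.6 untreated and 1298.9 and 1206 treated (-0.16 ± 0.20), although its brighter probe set, measured at date 2 alone, went from 9904.1 to 11149.6. Uqcrfs1, the Rieske iron-sulfur protein, measured 1253.2 and 1259.6 untreated and 1531.6 and 1385.8 treated (0.21 ± 0.20), higher on both treated arrays. None of the 7 genes passed.

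Complex IV held several of the brightest signals and leaned above 0, with a median of 0.13 (0.09 at date 1 and 0.12 at date 2) and 8 of 11 fitted changes above 0, but 0 passed. Cox7a2l, which promotes the joining of complexes III and IV into supercomplexes, measured 1337.9 and 1732.1 untreated and 2019.3 and 2194.2 treated. The groups did not overlap, and its change was 0.46 ± 0.19 (adjusted p = 0.175). Its other probe sets, measured at date 2 alone, had log2 ratios of 0.46 and 0.38, beside 0.34 for the one tested, so all 3 were higher with treatment at that date. Cox4i1, the ubiquitous isoform of the regulatory subunit, measured 6674.1 and 6071.4 untreated and 7348.6 and 7265.7 treated (0.20 ± 0.13, with a 95% interval from -0.08 to 0.47).

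Among 8 subunits in their ubiquitous isoforms the median was 0.06, and 2 were higher at both dates. Cox6a1, the liver type of its pair, measured 10807.1 and 9238.3 untreated and 10507.6 and 11776.5 treated (0.15 ± 0.12). Cox8a had the largest gap between dates in the complex, going from 5393.7 to 4851.6 at date 1 and from 4569.6 to 6082.8 at date 2, while its dimmer probe set was higher at both (0.08 and 0.47). Cox7a2 (0.06 ± 0.12) and Cox6b1 (-0.10 ± 0.15) differed little, and the dimmer probe set of each had a change of opposite sign. Ndufa4 measured 7301 and 5697.3 untreated and 6265.5 and 6378.5 treated (-0.03 ± 0.14).

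Most isoforms of complex IV restricted to other tissues or conditions were dim. Cox6a2, Cox7a1 and Cox8b are the isoforms of heart and skeletal muscle. Cox7a1 lay between 16.2 and 30.3 and Cox8b between 8.5 and 40.5, with no background level given to set them against. Cox6a2 measured 122.9 and 64.6 untreated and 229.9 and 91.4 treated (0.58 ± 0.28, adjusted p = 0.265). None of 8 striated muscle markers had a mean of at least 101, and their sum was 336.3 and 209.9 untreated and 248.5 and 413.3 treated. Without LGG replicate 1 the log2 change of Cox6a2 was 0.02, without LGG replicate 2 it was 1.15, without untreated replicate 1 it was 0.94 and without untreated replicate 2 it was 0.22. Cox4i2, an isoform induced by low oxygen in some tissues, measured 111.8 and 112.6 untreated and 133.4 and 124.2 treated (0.16 ± 0.28). Cox6b2, an isoform of testis, was measured at date 2 alone, with 7.3 and 66.7. Cox8c, also measured at date 2 alone, was brighter, with 341 untreated and 493.8 treated.

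In complex V the median was -0.03 (-0.04 at date 1 and -0.11 at date 2), no change exceeded 0.32 in size, and 0 of 15 genes passed. The parts of the enzyme, grouped by role after the values were seen, lay on different sides of 0. The 4 subunits of the peripheral stalk, which holds the catalytic head still against rotation, were all lower at both dates. Atp5pb, the long stalk subunit, measured 2665.8 and 2174.6 untreated and 2079 and 1779.6 treated (-0.32 ± 0.17, adjusted p = 0.332). Atp5o, which joins the stalk to the head, measured 3664.8 and 3630.5 untreated and 3114.5 and 2820.1 treated (-0.30 ± 0.16, adjusted p = 0.313). For both genes the groups did not overlap. Atp5h (-0.19 ± 0.15) and Atp5j (-0.15 ± 0.15) were lower at each date but overlapped between groups. Other probe sets went from 3432.7 to 2752.4 for Atp5pb and from 570.1 to 285.8 for Atp5o at date 2, while that of Atp5h had log2 ratios of -0.17 and 0.06.

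The 5 subunits of the catalytic F1 head had fitted changes from 0.01 to 0.19, and 3 of them were higher at both dates. Atp5a1 and Atp5e changed direction, with log2 ratios of -0.07 and 0.12 for Atp5a1 and 0.16 and -0.13 for Atp5e. Atp5b, the catalytic beta subunit, measured 5899.6 and 5625.6 untreated and 6462.3 and 6141.2 treated (0.13 ± 0.13), with nearly equal ratios of 0.13 at both dates. Atp5d, in the central stalk, measured 2083.8 and 1876.8 untreated and 2378.5 and 2160.8 treated (0.19 ± 0.18), and Atp5c1 4595.7 and 4719.9 untreated and 4677.8 and 4768.4 treated (0.02 ± 0.14). Whether the stalk and the head differ from each other was not tested. In the membrane part, Atp5k, a subunit that helps the enzyme form dimers, had the widest gap between dates of the complex. It went from 4048.1 to 5404.3 at date 1 and from 4344.4 to 3132.7 at date 2, and its other probe set with values on all arrays moved alike (0.41 and -0.25).

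**Figure D4:**
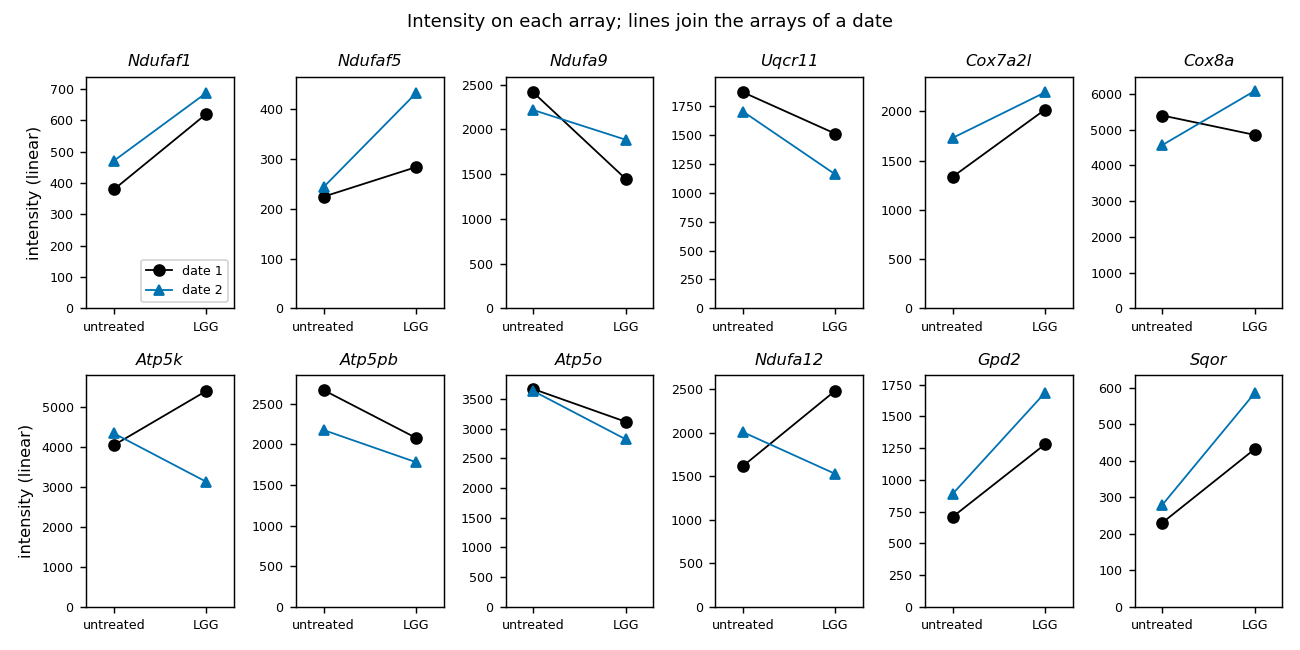
Intensity (linear, axes from 0) of 10 members and of the ubiquinone-linked genes Gpd2 and Sqor on each array, with lines joining the untreated and treated array of date 1 (circles) and of date 2 (triangles). Lines run in the same direction at both dates for Ndufaf1, Ndufaf5, Ndufa9, Uqcr11, Cox7a2l, Atp5pb, Atp5o, Gpd2 and Sqor. They run in opposite directions for Cox8a, Atp5k and Ndufa12.

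Of the 65 probe sets measured at date 2 alone, 57 had a mean of at least 101 there. Between the treated and the untreated array, 7 of these 57 (12.3%) differed at least 1.5-fold, 5 higher and 2 lower, against 22.5% of the 3321 named probe sets of that kind. Beside Sdhd, Ndufaf7, Sdhaf1 and a probe set of Atp5o, these were dim probe sets of Ndufs4 (156 and 284.9), Cox5b (132.3 and 220.1) and Atp5c1 (98.1 and 326.9). At that date the probe sets that represent Ndufs4 and Atp5c1 in the test had log2 ratios of 0.21 and 0.01. For Cox5b, the tested probe set had -0.04, and 3 others of over 1000 measured at date 2 alone had -0.06, -0.13 and 0.39.

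Genes that feed the chain or build it were compared from lists chosen by function. Of 8 other electron carriers tested, 2 rose, 0 fell and 6 did not pass. Over all 6952 genes tested, 6.5% passed. Gpd2, Sqor, Dhodh and Etfdh all pass electrons to ubiquinone without complex I; Gpd2 and Sqor rose, while Dhodh, of pyrimidine synthesis, had a change of -0.14 (limma, adjusted p = 0.817) and Etfdh, of fatty acid oxidation, 0.01 (adjusted p = 0.988). Gpd2, the mitochondrial glycerol 3-phosphate dehydrogenase, rose from 709.2 and 890.7 to 1280.5 and 1687, a log2 change of 0.87 ± 0.20 (limma, adjusted p = 0.022). Sqor, the sulfide quinone oxidoreductase, rose from 230.6 and 279.8 to 432.2 and 585.8 (0.92 ± 0.24, adjusted p = 0.0351). Both were higher at each date, but without date as a block neither passed (adjusted p = 0.12 and 0.137). With each array left out in turn and no date block, the changes ran from 0.67 to 1.06 for Gpd2 and from 0.71 to 1.13 for Sqor. Those fits leave 1 array in a group, so only their changes are given. Both passed with a pseudocount of 1% or 20%, the filter at 50% and quantile normalization. They also passed in the fit on the mean of a gene's probe sets. Neither had another tested probe set, so nothing was averaged for them there. Neither passed with median scaling or without the intensity trend. With no filter on low values neither passed, but that fit called no gene at all. Etfa, an electron transfer flavoprotein subunit, had a change of -0.23 and did not pass.

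Of 16 genes of the TCA cycle and pyruvate dehydrogenase tested, 1 rose and 0 fell, with a median of 0.09. This count stands beside the 6.5% of all genes tested that passed. Dlat, the acetyltransferase of pyruvate dehydrogenase, rose from 367.4 and 348.9 to 629.8 and 903 (1.02 ± 0.24, adjusted p = 0.0218). A second probe set of Dlat also rose (0.86), another measured -0.12, and without the block the brightest did not pass (adjusted p = 0.102). With the mean of its probe sets the change was 0.59 and did not pass (adjusted p = 0.0815). Like Gpd2 and Sqor, Dlat passed with the lower and the higher pseudocount, the stricter filter and quantile normalization. Also like them, it did not pass with median scaling or without the intensity trend (limma, adjusted p = 0.0505 and 0.0507). With no filter on low values it did not pass, but that fit called no gene at all. With each array left out in turn and no date block, its changes ran from 0.77 to 1.28. Those fits leave 1 array in a group, so only the changes are given. Pcx, pyruvate carboxylase, had a change of -0.64 (adjusted p = 0.139). Of 21 assembly factors outside the members 0 rose and 0 fell by limma (4 at an unadjusted p under 0.05), with a median of -0.02, and the ends were Oxa1l (0.57, but -0.27 in a dimmer probe set) and Coa7 (-0.84, adjusted p = 0.0942). Of 13 regulators of mitochondrial biogenesis and transcription 0 rose and 0 fell by limma (1 at an unadjusted p under 0.05), with a median of 0.08. Polg2, a subunit of the mitochondrial DNA polymerase, had a change of 0.66 and Yy1 -0.24. A dimmer tested probe set of Yy1 had a change of -0.76 (limma, adjusted p = 0.121). Its probe sets measured at date 2 alone had log2 ratios of -0.36 and -0.34. With the mean of its tested probe sets the change of Yy1 was -0.50 and did not pass. Tfam, the factor that packs and transcribes mitochondrial DNA, measured 827.5 and 938.8 untreated and 1000.2 and 870 treated. Of 4 genes of coenzyme Q synthesis 0 rose and 0 fell by limma (2 at an unadjusted p under 0.05), with Coq5 at 0.65 and Coq7 at -0.59. Over all genes tested, 20.3% stood at an unadjusted p under 0.05 by limma. Fitted with no date block, the change of Coq7 was -1.03 without LGG replicate 1 and -0.16 without LGG replicate 2.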

How the data were processed

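RNA of 4 samples of YAMC cells was profiled on mouse 430A arrays, 2 untreated and 2 after LGG conditioned medium. The authors deposited intensity values on a linear scale, from 0.1 to 19843.8. How they were read and scaled is not given in the sources used here. Arrays had near equal trimmed means, so values were used as deposited. No detection calls were used.

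Groups and dates came from the array titles. Values were taken as log2(intensity + 25.2), where 25.2 is 5% of 504.9, the geometric mean over arrays of the trimmed mean. Of 22690 probe sets, 64 controls and those without values on all arrays were left out, and 10333 with a mean of at least 101 (20%) were fitted with limma 3.58.1 in R 4.3.3: group and date, an intensity trend, Benjamini-Hochberg adjustment over all probe sets, threshold 0.05. The block left 1 residual degree of freedom beside 12.5 prior ones. The date pairs the arrays by their titles; date differences in the groups correlated at 0.27 across probe sets. Gene names came from the platform annotation, where 20393 probe sets had 1 symbol, 691 several and 1606 none; 8 with several symbols would have matched and were left out. All 160 members matched RefSeq, with 0 symbols changed. Promoters came from RefSeq.

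The members and lists were chosen with earlier results of these data known. Named are every called member, up to 3 genes per complex and direction with the largest change of 1 sign at both dates, the gene of each complex whose dates differ most, complex II, and fixed isoforms; from the other lists, called genes and the largest change in each direction. Ndufaf3, Ndufaf4, Ndufaf7, Ndufa7, Ndufv2, Uqcrc1, Uqcrc2, Uqcrh, Atp5j, Tfam and the probe sets of large ratio at date 2 were named after their values were seen. So were Atp5a1, Atp5e and Cox8c. Alternatives were the block, the pseudocount, the filter, the scaling, the trend, the probe set rule and each array left out. With an array left out, the date block was dropped as well. The fit was tested on simulated data. Figures used matplotlib 3.10.9.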

Additional observations from a re-analysis of the deposited data

How the results depend on the processing

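In all 13 refits, 0 members rose and 0 fell; 3 of these (no filter on low values, and without untreated replicate 1 or 2) called no gene at all, so they decide nothing. The lowest adjusted p of a member was 0.0591 to 0.817 over the refits, and 0 to 7 members stood at an unadjusted p under 0.05. Without date as a block (the pairing), 0 members passed and 24 genes rose and 37 fell, and the members' lowest adjusted p was 0.267. Over all genes, calls higher and lower were 106 and 130 with median scaling, 115 and 129 without a trend, 383 and 430 with the mean of a gene's probe sets, and 74 and 113 without LGG replicate 2.

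The median of complex IV was 0.11 with a pseudocount of 20%, 0.064 with no filter, 0.064 with the filter raised to 50%, 0.063 with quantile normalization, 0.16 with the mean of a gene's probe sets and 0.10 with structural subunits alone and Ndufa4 in complex IV. With 1 array left out the fit had no date block, so differences between the dates can enter its values. Medians then lay between -0.041 and 0.050 for all members, -0.0050 and 0.044 for complex I and -0.29 and 0.011 for II. They lay between -0.15 and 0.34 for III, 0.016 and 0.16 for IV and -0.18 and 0.050 for V. Of 401 refitted values of 31 named members, 387 kept their sign. Atp5k and Sdha turned to 0.026 and 0.064 with the mean of their probe sets, and 12 values turned with an array left out: Atp5k (-0.42 to 0.36), Cox7a2 (-0.041 to 0.17), Cox8a (-0.033 to 0.29), Ndufa12 (-0.24 to 0.46), Ndufa4 (-0.21 to 0.15), Sdha (-0.24 to 0.11), Sdhc (-0.34 to 0.13) and Uqcr10 (-0.15 to 0.37). The cause was not tested. Coa7 and Pcx passed in the fit on the mean of a gene's probe sets (limma, adjusted p = 0.0215 and 0.0476). Neither has another probe set, so nothing was averaged and their changes stayed at -0.84 and -0.64. That fit had 41.4 prior degrees of freedom, against 12.5 in the main fit. The arrays hold no measure of background, so the dim isoforms of complex IV have no bound, and the median standard error of a member's change was 0.18.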

Other observations

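Among member probe sets, those with the plain and the _a_at ending differed in direction at each date. The pattern was noticed after the values were seen and not tested. On this platform a name ending in _at alone marks probes of 1 transcript, and the endings _a_at, _s_at and _x_at mark probes shared by several transcripts or sequences. Of 48 member probe sets with the plain ending, 7 were higher at date 1 and lower at date 2 and 15 the reverse, with medians of -0.07 and 0.04. Of 30 with the ending _a_at, these were 10 and 5, with medians of 0.07 and 0.01. They were 3 and 0 of 8 with the ending _s_at, and 1 and 2 of 5 with the ending _x_at. Over all 7042 plain probe sets tested, 878 were higher at date 1 and lower at date 2 and 1612 the reverse. Over all 2317 with the ending _a_at, these were 347 and 502, so both classes leaned the same way there. Of 22 member genes with several probe sets tested, 6 had fitted changes of opposite sign: Atp5k, Cox6b1, Cox7a2, Ndufa3, Ndufv1 and Sdha.

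Probe sets with several symbols were kept out of the members. That of Ndufs5 and its pseudogene measured 999.4 and 1208.4 untreated and 1173.5 and 1135.7 treated, and the brighter of those for Ndufb4 and its copies went from 2074.1 to 2280.8 at date 2.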
